A study of Gallus gallus with 12 samples.

Results

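Integrins, cadherins, protocadherins, claudins and connexins are the membrane proteins by which cells hold on to the matrix and to each other. The genes described here are those of the deposited count table whose symbol starts with ITGA, ITGB, CDH, PCDH, CLDN, GJA, GJB, GJC or GJD followed by a digit, with ITGAV added and the ITGB1BP genes, CDH1 and GJA5 left out. These letters picked 62 of the 17138 genes in the table: 17 integrins, 17 cadherins, 9 protocadherins, 8 claudins, 10 connexins, and ITGB3BP. The last codes for a centromere protein and not an integrin, so it is counted among the 62 but set apart from the families.

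The counts came from chick (Gallus gallus) embryos at embryonic day 14, measured by Light-seq. In this spatial RNA sequencing method, RNA is copied into cDNA on a tissue section, regions outlined by hand receive DNA barcodes by light, and the barcoded cDNA is then sequenced. Each sample gave 1 library with 3 barcoded regions: the mesenchyme directly beneath the epithelium, the inner longitudinal muscle, and the circumferential muscle on its inner side. The study asked which genes of the mesenchyme differ from control midgut both in hindgut and in midgut that misexpresses Hoxd13.

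There were 4 samples in each of 3 groups. Hindgut samples came from control embryos that carried RCAS-mGFP, a chicken retrovirus that codes for mGFP, a fluorescent protein. Hoxd13 midgut samples came from embryos that carried RCAS-Hoxd13, the same virus with the posterior transcription factor Hoxd13. Midgut samples came from control embryos with RCAS-mGFP. In all 3 groups the virus was electroporated in ovo at Hamburger-Hamilton stage 17, aimed at the lateral plate mesoderm at midgut level, and embryos were kept at 38 °C. A virus of this kind spreads between dividing cells after it enters, and the labels do not state which cells carried it when the tissue was taken. Nothing in the labels says whether the 4 samples of a group are separate embryos, so p-values measure only the spread between these samples, which may be technical.

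Integrins are pairs of an alpha and a beta chain that bind matrix proteins outside the cell and, through talin and kindlin, actin inside it. Classical cadherins bind their like on the next cell and are tied to actin by catenins, while protocadherins lack the catenin-binding tail. Claudins form the strands of tight junctions that seal epithelia and endothelia, and connexins form gap junctions, which pass ions and small molecules from cell to cell. In the gut wall, claudins and CDH17 are known mainly from the epithelium, CDH5 and CLDN5 from blood vessels, and CDH11 from mesenchyme.

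Total counts per sample ran from 210803 to 903222 in the mesenchyme, from 11233 to 49535 in the longitudinal muscle and from 19920 to 112252 in the circumferential muscle. A count of 0 in 1 mesenchyme sample allowed up to 3.32 to 14.2 CPM (counts scaled to a common library size), for counting error only. In longitudinal muscle a 0 allowed up to 60.6 to 267 CPM, and in circumferential muscle up to 26.7 to 151 CPM. HOXD13 had 213, 202, 155 and 238 counts in Hoxd13 midgut, 4, 2, 1 and 8 in hindgut and 0 in every midgut sample. Each marker of mesenchyme, such as COL1A1, PDGFRA and FOXF1, had counts in the mesenchyme regions, but so did each marker of epithelium in the table. Summed over 15 epithelial markers, hindgut replicate 1 stood apart from its group with 2607 CPM of total counts, against 635 to 693 CPM in the other hindgut samples. The same sum was 1501 to 1793 CPM in Hoxd13 midgut and 1779.6 to 2637 CPM in midgut. The members' results in hindgut against midgut are therefore given with and without that library.

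The 62 genes summed to 10933 counts over the 12 mesenchyme samples, and 21 of them passed the filter on low counts. These 21 held 90.2% of the members' counts, with 127 to 1210 counts each. The 21 were 7 integrins (ITGA3, ITGA6, ITGA8, ITGA9, ITGAV, ITGB1 and ITGB5), 6 cadherins (CDH2, CDH5, CDH6, CDH11, CDH13 and CDH17), 3 protocadherins (PCDH1, PCDH18 and PCDH19), 2 claudins (CLDN1 and CLDN3) and 3 connexins, among them GJA1 and GJB1. The other 41 had 1 to 111 counts, median 25, and 13 of them had under 10. None of the 62 was at 0 in all mesenchyme samples. Because 41 genes were untested, counts over the tested 21 say nothing of the whole families.

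**Figure D1:**
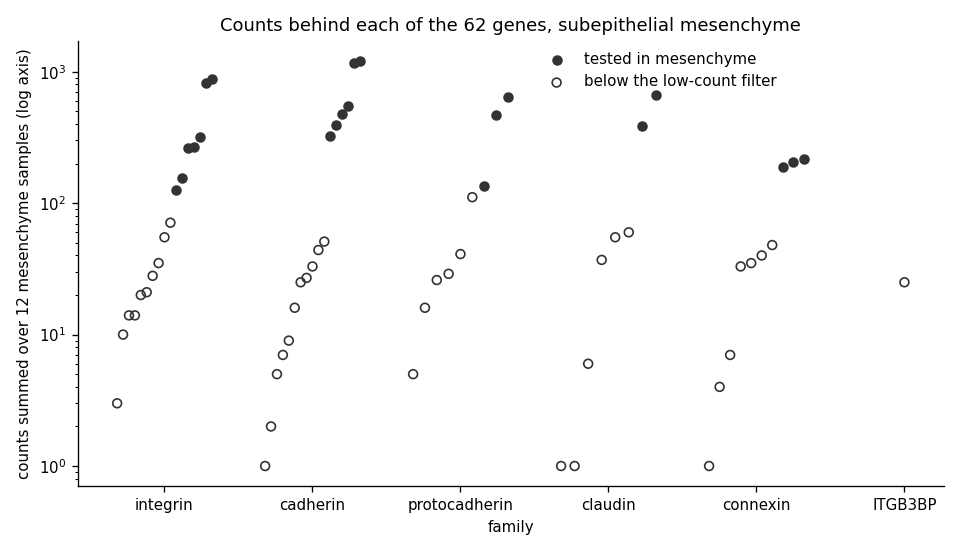
Counts of each gene summed over the 12 mesenchyme samples (vertical axis, log scale), by family (horizontal axis). Filled points are the 21 genes that passed the low-count filter, with 127 counts or more, and open points are the 41 genes below it, with 1 to 111 counts.

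In hindgut against midgut, 1 of the 21 tested members rose and none fell: CDH13. Across all 4176 genes tested, 55 rose (1.32%) and 7 fell (0.168%), so 1.48% were called in either direction. With library totals in place of TMM factors, all 54 genes called were higher in hindgut. The median log2 fold change of the members was 0.12, beside -0.00 for all genes tested. By family the medians were 0.23 for integrins, 0.12 for cadherins with protocadherins, -0.28 for the 2 claudins and -0.25 for connexins. With hindgut replicate 1 left out, the members' median was 0.23, and the family medians were 0.39, 0.23, -0.50 and -0.17 in the same order.

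CDH13, or T-cadherin, is anchored to the membrane by a lipid and has no cytoplasmic tail. It measured 86.3, 173, 158 and 192 CPM in hindgut replicates 1 to 4, 105, 75.8, 81.2 and 95.1 CPM in Hoxd13 midgut, and 84.2, 63.1, 70.9 and 76.9 CPM in midgut. Every hindgut sample lay above every midgut sample, as in 1.92% of genes (1.05% lay wholly below), though hindgut replicate 1 did so by a narrow margin. Means were 152 ± 46.0 CPM in hindgut and 73.8 ± 8.94 CPM in midgut (SD, n = 4 each), a log2 fold change of 0.95 ± 0.23 (SE, adjusted p = 0.036, edgeR quasi-likelihood F test, Benjamini-Hochberg). Without hindgut replicate 1 it was 1.23 ± 0.19 (adjusted p = 1.8e-06). The call was lost without any 1 of hindgut replicates 2, 3 and 4, midgut replicates 1 to 4 or Hoxd13 midgut replicate 3. It was also lost with only hindgut and midgut fitted, and it held in 11 of 20 alternatives. Over these 20, log2 fold changes were 0.71 to 1.23, with adjusted p of 1.8e-06 to 0.23. Against Hoxd13 midgut, CDH13 was 0.69 ± 0.23 in hindgut (adjusted p = 0.097), with 3 of 4 hindgut samples above all Hoxd13 midgut samples.

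PCDH18, a protocadherin of the delta group, had the smallest adjusted p of the members in the 3 mesenchyme comparisons. It measured 133, 161, 134 and 127 CPM in Hoxd13 midgut replicates 1 to 4, against 49.1, 66.5, 50.6 and 76.9 CPM in midgut. No Hoxd13 midgut sample overlapped the midgut samples. The log2 fold change was 1.19 ± 0.24 (SE, adjusted p = 0.0075, edgeR), and it was past the threshold in all 20 alternatives tried. In hindgut, PCDH18 measured 78.3, 124, 187 and 109.9 CPM, with all 4 samples above midgut and replicate 1 the lowest. That gave 0.91 ± 0.24 against midgut, short of the threshold (adjusted p = 0.056), and 1.13 ± 0.22 without hindgut replicate 1 (adjusted p = 0.00011). Hindgut and Hoxd13 midgut shared the midgut samples as control, so both values rest in part on the same 4 libraries. Set directly against Hoxd13 midgut, hindgut PCDH18 was -0.27 ± 0.22 (adjusted p = 0.56).

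In Hoxd13 midgut against midgut, PCDH18 was the 1 of 21 tested members that rose, and none fell. Of the 4176 genes tested, 55 rose (1.32%) and 56 fell (1.34%), 2.66% in all. With library totals, 22 of 92 called genes were higher in Hoxd13 midgut, and that scaling moved the median of all genes by -0.21. The members' median was 0.16, beside 0.01 for all genes. In 3 of the 21 members the 4 Hoxd13 midgut samples lay above all midgut samples (PCDH18, CLDN3 and ITGA8), as in 6.59% of genes, and in none below, as in 6.9%.

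In hindgut against Hoxd13 midgut, 5 of the 21 had an unadjusted p under 0.05, beside 735 of the 4176 genes tested. None of the 21 passed the threshold with edgeR, and DESeq2 called none either. Among all genes 94 rose (2.25%) and 64 fell (1.53%), 3.78% in either direction, and with library totals 212 of 226 called genes were higher in hindgut. The 21 log2 fold changes ran from -0.75 to 0.69. In 3 members all hindgut samples lay below all Hoxd13 midgut samples (CDH6, CLDN1 and CLDN3), as in 5.44% of genes, and in none above, as in 4.65%.

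**Figure D2:**
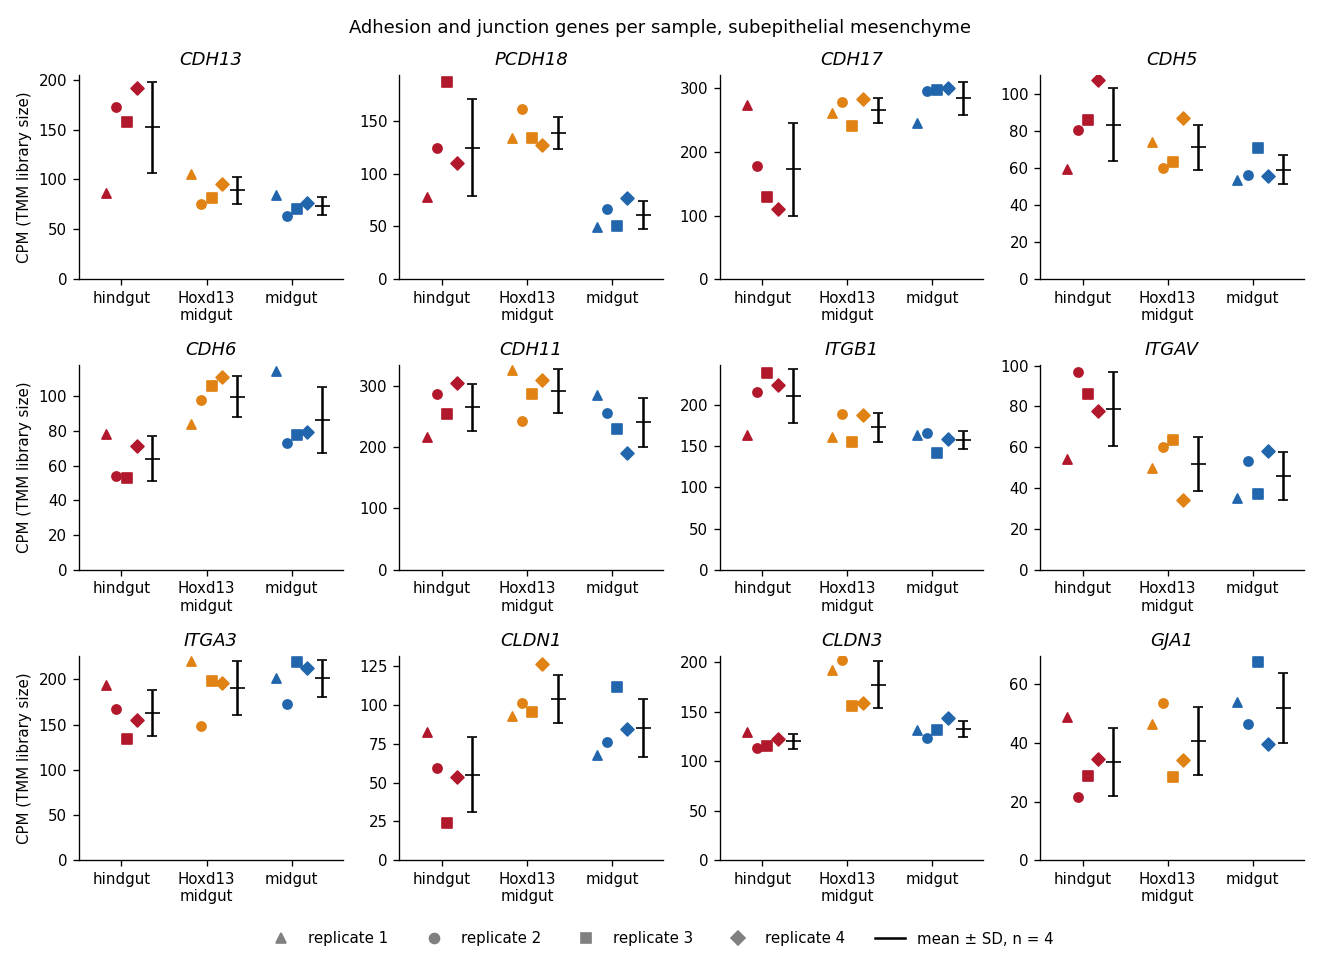
Level of 12 members in each mesenchyme sample, in CPM on TMM library sizes (vertical axis), for hindgut, Hoxd13 midgut and midgut (horizontal axis). Symbols mark replicates and black bars the mean ± SD (n = 4). CDH13 in hindgut replicate 1, at 86.3 CPM, sits below the 158 to 192 CPM of the other hindgut samples, and PCDH18 sits above midgut in both other groups.

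Among the 21, hindgut replicate 1 was the lowest of the 4 hindgut samples in 8 genes, among them CDH11, CDH13, CDH5, PCDH18, ITGB1, ITGB5 and ITGAV, and the highest in 7 (CDH17, CDH6, CLDN1, CLDN3, GJA1, ITGA3 and PCDH1). Hindgut replicates 2, 3 and 4 were the lowest in 6, 5 and 2 genes, and the highest in 3, 3 and 8. Such counts were not made over all genes tested. The median coefficient of variation over the 21 genes was 30.2% in hindgut, 15.1% in Hoxd13 midgut and 22.1% in midgut. Leaving out hindgut replicate 1, 8 of 21 members passed the threshold between hindgut and midgut (38.1%), beside 19.6% of the 4214 genes then tested. Of these, 6 rose (among them CDH13, PCDH18, CDH5, ITGB1 and ITGAV, beside 10.1% of all genes) and 2 fell (CDH17 and CLDN1, beside 9.52%). In Hoxd13 midgut against midgut, whose own samples were all kept, 2 members then passed, among them PCDH18, both higher, beside 7.52% of genes called, 3.2% higher and 4.32% lower. In hindgut against Hoxd13 midgut, 6 members passed, beside 14.9% of genes. CDH13 and ITGAV rose there, beside 7.81% of genes, and CDH17, CDH6, CLDN1 and CLDN3 fell, beside 7.12%. The library was left out because its epithelial markers stood apart, a choice made with the results known. For epithelial genes such as CDH17, CLDN1 and CLDN3 the p-values without it are therefore no independent test. Nor are they for the other members, since the choice was made with their results known.

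With all samples, 3 of the 10 smooth muscle markers tested rose in hindgut against midgut (ACTG2, DES and TAGLN) and 1 of the 10 epithelial markers tested fell (ANPEP). Of all genes tested, 1.32% rose and 0.168% fell. Without hindgut replicate 1, 9 of 10 smooth muscle markers rose and 7 of 10 epithelial markers fell, beside 10.1% of all genes higher and 9.52% lower. The second count is no independent result, since that library was left out for its epithelial markers. Both erythroid markers tested, the globins HBA1 and HBAD, rose in hindgut against midgut and against Hoxd13 midgut, with and without that library. The 4 erythroid markers in the table summed to 424 to 755 CPM of total counts in hindgut, 113 to 159 CPM in Hoxd13 midgut and 176 to 333 CPM in midgut. Summed smooth muscle markers were 6347 CPM of total counts in hindgut replicate 1 and 8686, 9054 and 12333 CPM in replicates 2 to 4. They were 4799 to 5803 CPM in Hoxd13 midgut and 3867 to 6125 CPM in midgut. These sums were not made on TMM library sizes, the scale of the members' CPM, and the order of hindgut replicate 1 and midgut may differ there. The part of cell composition in the members' differences was not tested. In such regions, fewer cells of a type and less RNA per cell cannot be told apart.

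**Figure D3:**
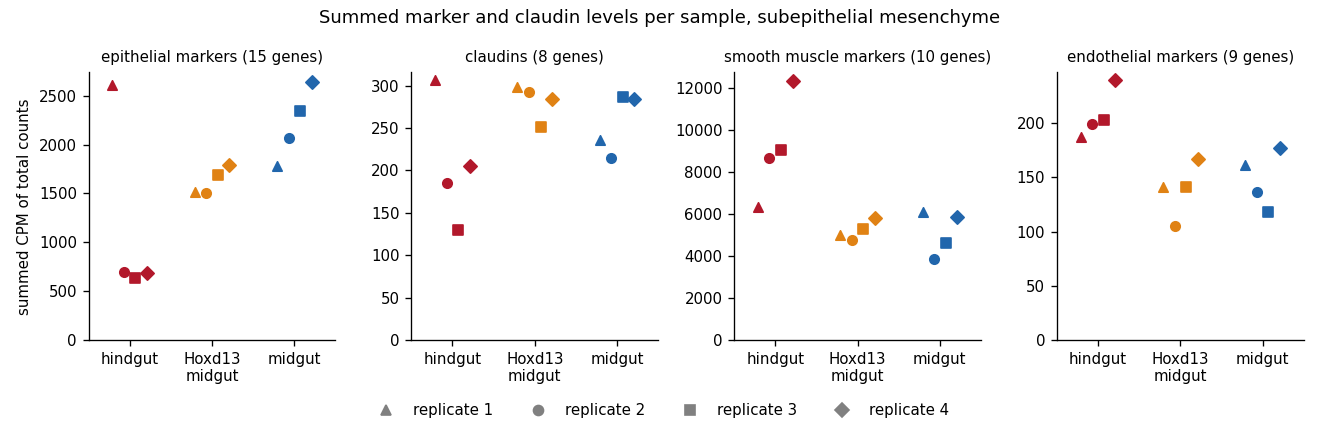
Summed levels per mesenchyme sample, in CPM of total counts (vertical axes), for 15 epithelial markers, the 8 claudins, 10 smooth muscle markers and 9 endothelial markers, in hindgut, Hoxd13 midgut and midgut (horizontal axes). Symbols mark replicates. Hindgut replicate 1 is at 2607 CPM for epithelial markers and 307 CPM for claudins, above the 635 to 693 CPM and 130.0 to 205 CPM of the other hindgut samples.

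Among the integrins, none of the 7 tested passed the threshold in any comparison of all 12 mesenchyme samples. ITGB1, the beta chain shared by many matrix receptors, measured 164, 216, 239 and 224 CPM in hindgut, 161, 189, 155 and 187 CPM in Hoxd13 midgut and 164, 166, 142 and 159 CPM in midgut. Hindgut replicates 2 to 4 lay above all other samples, and replicate 1 lay among the midgut samples. The log2 fold change against midgut was 0.38 ± 0.16 (adjusted p = 0.26), and 0.51 ± 0.16 without hindgut replicate 1 (adjusted p = 0.015). ITGAV, the alpha chain of receptors for fibronectin and vitronectin, split the samples the same way. It measured 54.3, 97.1, 86.1 and 77.5 CPM in hindgut, 49.6, 60.0, 63.5 and 34.3 CPM in Hoxd13 midgut and 35.1, 53.2, 37.1 and 58.3 CPM in midgut. Against midgut, ITGAV in hindgut was 0.66 ± 0.25 (adjusted p = 0.21), and 0.87 ± 0.26 without replicate 1 (adjusted p = 0.012). In this comparison ITGB1 passed in 1 of 20 alternatives and ITGAV in 1 of 19, in each case only without replicate 1.

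ITGB5, a beta chain that pairs with ITGAV, measured 55.2, 64.7, 57.4 and 86.2 CPM in hindgut, 68.2, 72.6, 81.2 and 129 CPM in Hoxd13 midgut and 53.8, 33.2, 77.6 and 58.3 CPM in midgut. Its groups overlapped, and the fold change in Hoxd13 midgut against midgut was 0.67 ± 0.26 (adjusted p = 0.18). ITGA8, the receptor chain for nephronectin, was higher in all 4 Hoxd13 midgut samples (38.8 to 47.4 CPM) than in any midgut sample (13.3 to 33.8 CPM), with 0.76 ± 0.34 (adjusted p = 0.25). Laminin-binding ITGA3 measured 194, 167, 134 and 155 CPM in hindgut, 220.2, 148, 198 and 195 CPM in Hoxd13 midgut and 201, 173, 219 and 212 CPM in midgut. Hindgut replicates 2 to 4 lay below all midgut samples, yet the difference was -0.28 ± 0.16 (adjusted p = 0.48), and -0.41 ± 0.17 without replicate 1 (adjusted p = 0.079). ITGA6, another laminin receptor, was -0.26 ± 0.22 in hindgut and -0.22 ± 0.23 in Hoxd13 midgut against midgut. ITGA9, which binds tenascin, was 0.12 ± 0.39 and -0.09 ± 0.41 in the same comparisons, the widest errors of the 7. Leaving hindgut replicate 1 out gave hindgut values of -0.41 ± 0.27 for ITGA6 and 0.34 ± 0.41 for ITGA9. Those of ITGB5 and ITGA8 were 0.23 ± 0.26 and 0.45 ± 0.34 with all samples, and 0.39 ± 0.27 and 0.68 ± 0.36 without it, none past the threshold.

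CDH17, the liver-intestine cadherin known from gut epithelium, was high in hindgut replicate 1 and low in the other hindgut samples. It measured 273, 178, 129 and 109.9 CPM in hindgut, 261, 278, 239.9 and 283 CPM in Hoxd13 midgut and 246, 296, 297 and 299.7 CPM in midgut. Hindgut replicates 2 to 4 lay below every other sample, while replicate 1 lay within the range of both midgut groups. Against midgut the change in hindgut was -0.64 ± 0.20 (adjusted p = 0.11), and -1.11 ± 0.16 without replicate 1 (adjusted p = 7.0e-07). Replicate 1 was left out for its high epithelial markers, so for a cadherin of epithelium the second p-value is no independent test. Hoxd13 midgut differed from midgut by -0.10 ± 0.20 (adjusted p = 0.86). The summed epithelial markers were likewise highest in hindgut replicate 1, at 2607, 693, 635 and 685 CPM of total counts in hindgut replicates 1 to 4. The part of epithelial RNA in the CDH17 counts was not tested.

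CDH5, the cadherin of endothelium, measured 59.6, 80.9, 86.1 and 108 CPM in hindgut, 74.4, 60.0, 63.5 and 87.1 CPM in Hoxd13 midgut and 53.8, 56.5, 70.9 and 55.7 CPM in midgut. All hindgut samples but replicate 1 lay above midgut, and the fold change was 0.45 ± 0.22 (adjusted p = 0.37), or 0.69 ± 0.23 without replicate 1 (adjusted p = 0.024). CDH5 passed in no other of 19 alternatives. The 9 other endothelial markers summed to 187, 199, 203 and 240.1 CPM in hindgut, 141, 105, 141 and 167 CPM in Hoxd13 midgut and 161, 137, 119 and 177 CPM in midgut, per total counts. On total counts all 4 hindgut sums were above every other sample. CDH5 is given on TMM library sizes, and the marker sums were not made on that scale. Total counts moved the median log2 fold change of all genes by 0.24 in hindgut against Hoxd13 midgut. Whether more vessel tissue in the outlined regions accounts for CDH5 was not tested.

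CDH6 measured 78.3, 53.9, 52.6 and 71.1 CPM in hindgut, 83.7, 97.9, 106 and 111 CPM in Hoxd13 midgut and 115, 73.1, 77.6 and 79.6 CPM in midgut. Hindgut lay below Hoxd13 midgut in all 4 samples (-0.54 ± 0.20, adjusted p = 0.14, and -0.67 ± 0.23 with adjusted p = 0.040 without hindgut replicate 1). Against midgut it was -0.35 ± 0.20 (adjusted p = 0.47), and -0.50 ± 0.23 without that library (adjusted p = 0.13). CDH11, a cadherin of mesenchymal cells, was at 217, 286, 253 and 304 CPM in hindgut, 326, 243, 286 and 309 CPM in Hoxd13 midgut and 285, 256, 229.5 and 191 CPM in midgut. Its groups overlapped, with 0.12 ± 0.16 in hindgut and 0.27 ± 0.16 in Hoxd13 midgut against midgut. CDH2, or N-cadherin, gave 0.30 ± 0.20 and 0.14 ± 0.20 in the same comparisons, neither past the threshold. The hindgut values without replicate 1 were 0.23 ± 0.15 for CDH11 and 0.37 ± 0.21 for CDH2, again not past it.

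Of the other 2 protocadherins tested, PCDH1 measured 147, 113, 129 and 134 CPM in hindgut, 143, 136, 155 and 129 CPM in Hoxd13 midgut and 131, 133, 179 and 103 CPM in midgut. Hindgut and Hoxd13 midgut samples all lay inside the midgut range, and both fold changes, -0.02 ± 0.18 and 0.05 ± 0.18, were smaller than their errors. PCDH19, a relative of PCDH18, had -0.03 ± 0.37 in hindgut and 0.04 ± 0.38 in Hoxd13 midgut against midgut, on 58, 38 and 40 counts in hindgut, Hoxd13 midgut and midgut. In hindgut without replicate 1 the values were -0.10 ± 0.19 for PCDH1 and -0.20 ± 0.43 for PCDH19.

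The 2 claudins tested, CLDN1 and CLDN3, are epithelial tight junction proteins, and neither passed the threshold in any comparison of all 12 samples. CLDN3 measured 129, 113, 115 and 123 CPM in hindgut, 192, 202, 155 and 158 CPM in Hoxd13 midgut and 131, 123, 132 and 143 CPM in midgut. All Hoxd13 midgut samples were above both other groups, which overlapped. The fold changes were 0.42 ± 0.16 for Hoxd13 midgut against midgut (adjusted p = 0.17) and -0.54 ± 0.16 for hindgut against Hoxd13 midgut (adjusted p = 0.055). Without hindgut replicate 1 the second was -0.58 ± 0.18 (adjusted p = 0.022). Hindgut against midgut was -0.12 ± 0.16 (adjusted p = 0.88), and -0.17 ± 0.19 without that library (adjusted p = 0.58).

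CLDN1 measured 82.8, 59.3, 23.9 and 53.9 CPM in hindgut, 93.0, 101, 95.3 and 127 CPM in Hoxd13 midgut and 67.8, 76.4, 111 and 84.9 CPM in midgut. All 4 hindgut samples lay below Hoxd13 midgut, and only replicate 1 reached the midgut range. The difference from Hoxd13 midgut was -0.75 ± 0.24 (adjusted p = 0.085), and -1.13 ± 0.25 without replicate 1 (adjusted p = 0.00089). From midgut it was -0.44 ± 0.24 (adjusted p = 0.46), and -0.83 ± 0.26 without replicate 1 (adjusted p = 0.019). Replicate 1 was left out for its high epithelial markers, so for CLDN1 and CLDN3 the p-values without it are no independent test. All 8 claudins summed to 307, 185, 130.0 and 205 CPM of total counts in hindgut, 299, 292, 251 and 284 CPM in Hoxd13 midgut and 236, 215, 287 and 284 CPM in midgut. On total counts hindgut replicate 1, the sample high in epithelial markers, was the highest of the 12, with 307 CPM against 299 CPM in Hoxd13 midgut replicate 1. On TMM library sizes its CLDN1 and CLDN3, at 82.8 and 129 CPM, lay below every Hoxd13 midgut sample. The sum of all 8 was not made on that scale. The part of epithelial RNA in the claudin counts was not tested.

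Among the remaining claudins, CLDN5, which seals blood vessels, had 15, 3, 1 and 3 counts in hindgut, 9, 4, 6 and 2 in Hoxd13 midgut and 4, 6, 4 and 3 in midgut. Its sums of 22, 21 and 17 counts gave ratios to midgut of 0.979 in hindgut (95% counting interval 0.496 to 1.96) and 1.16 in Hoxd13 midgut (0.583 to 2.34). CLDN2, a pore-forming claudin, had 23, 12 and 20 counts in hindgut, Hoxd13 midgut and midgut. CLDN10, CLDN12, CLDN19 and CLDN20 had 1 to 37 counts in all.

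GJA1, the main connexin of smooth muscle and fibroblasts, measured 49.0, 21.6, 28.7 and 34.5 CPM in hindgut, 46.5, 53.7, 28.2 and 34.3 CPM in Hoxd13 midgut and 53.8, 46.5, 67.5 and 39.8 CPM in midgut. Hindgut replicates 2 to 4 lay below all midgut samples (-0.42 ± 0.27, adjusted p = 0.55, and -0.77 ± 0.33 with adjusted p = 0.090 without replicate 1). GJB1, an epithelial connexin of liver and gut, measured 39.2, 27.0, 33.5 and 58.2 CPM in hindgut, 12.4, 22.1, 42.3 and 37.0 CPM in Hoxd13 midgut and 60.8, 43.2, 57.4 and 37.1 CPM in midgut. Its difference of -0.80 ± 0.33 between Hoxd13 midgut and midgut did not pass (adjusted p = 0.21), with 3 of 4 Hoxd13 midgut samples below midgut. In hindgut against midgut it was -0.25 ± 0.30 (adjusted p = 0.82), and -0.17 ± 0.32 without hindgut replicate 1 (adjusted p = 0.78).

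**Figure D4:**
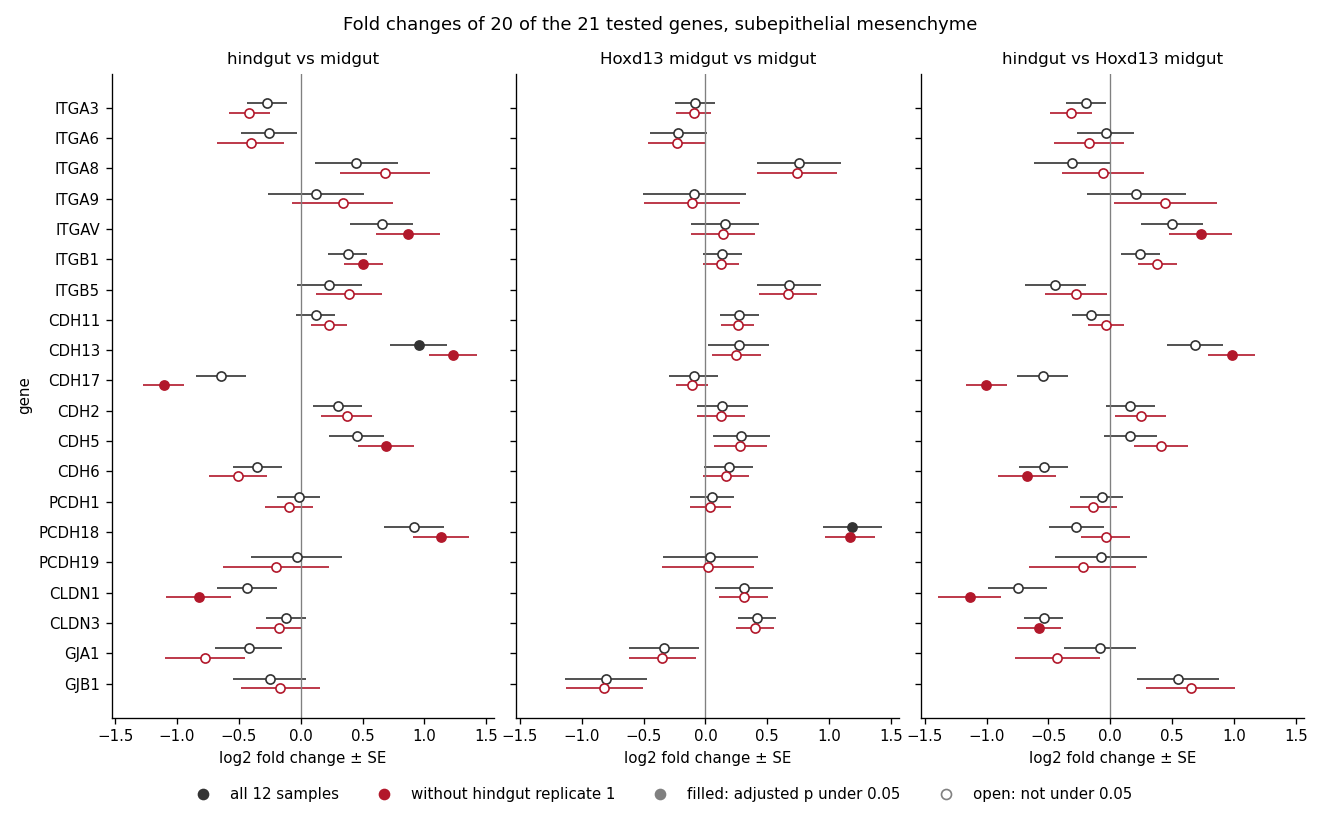
Log2 fold change ± SE (horizontal axes) of 20 of the 21 tested members (vertical axis) in hindgut against midgut, Hoxd13 midgut against midgut and hindgut against Hoxd13 midgut. Dark points use all 12 samples and red points leave out hindgut replicate 1; filled points have an adjusted p under 0.05. With all samples CDH13 at 0.95 and PCDH18 at 1.19 are filled, and without hindgut replicate 1 CDH17 moves to -1.11 in hindgut against midgut.

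For the 41 members below the filter, counts were summed over each group and set side by side with exact intervals. These intervals cover counting error only, and the deepest hindgut library, replicate 1, weighs most in the hindgut sums. CDH4, a neural cadherin related to CDH2, had 10, 5, 3 and 12 counts in hindgut, 1, 2, 3 and 4 in Hoxd13 midgut and 2, 3, 3 and 3 in midgut. Its ratio to midgut in hindgut was 2.06 (95% interval 1.00 to 4.56), with the lower end just above 1, and the interval of no other untested gene left out 1 in that comparison. Against Hoxd13 midgut the intervals of 3 genes lay above 1 in hindgut. They were CDH4 (ratio 2.41, 1.15 to 5.53), CDH23 (4.63, 1.58 to 18.4) and PCDH10 (2.41, 1.05 to 6.21). These ratios use total counts, which moved the median log2 fold change of all genes by 0.24 in that comparison. The share of all genes with such an interval was not computed.

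CDH23, known in mammals from the tip links of hair cells, had 14, 3, 3 and 3 counts in hindgut, 1, 1, 2 and 0 in Hoxd13 midgut and 3, 6, 0 and 8 in midgut. Its Hoxd13 midgut sum of 4 against 17 in midgut gave a ratio of 0.221 (0.0541 to 0.678), though 1 midgut sample was at 0. Like the CLDN5 ratios, this ratio uses total counts. That scaling moved the median log2 fold change of all genes by -0.21 in Hoxd13 midgut against midgut, toward lower ratios. ITGA4, which pairs with ITGB1 to bind fibronectin, had 9, 5, 2 and 4 counts in hindgut, 6, 5, 4 and 8 in Hoxd13 midgut and 5, 0, 3 and 4 in midgut, and no interval of it left 1 out. ITGB3BP had 6, 11 and 8 counts in hindgut, Hoxd13 midgut and midgut.

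Across layers, 4 members had enough counts to be tested: CDH11, CDH17, ITGA3 and ITGB1. In circumferential muscle against mesenchyme, averaged over the 3 groups with the sample as a block, CDH17 fell and ITGB1 rose. Of the 614 genes tested there, 129 rose (21%) and 117 fell (19.1%), 40.1% in all, and with library totals 88 of 255 called genes were higher in circumferential muscle. In longitudinal muscle against mesenchyme, CDH17 fell and the other 3 did not pass, beside 61 genes that rose (9.93%) and 67 that fell (10.9%), 20.8% in all. A gene could pass the low-count filter of this fit by its level in a few columns of a single layer. That favours calls toward the layer where a gene is high, so the directions called are not independent of the filter. With no filter CDH17 still fell past the threshold in both muscle layers, and ITGB1 did not rise. The median of all genes then moved by -0.62 in circumferential and -1.01 in longitudinal muscle.

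CDH17 in circumferential muscle measured 74.0, 28.7, 0 and 125 CPM in hindgut, 184, 324, 110.5 and 94.2 CPM in Hoxd13 midgut and 162, 147, 52.5 and 30.2 CPM in midgut. In longitudinal muscle it measured 65.2, 153, 86.1 and 81.0 CPM in hindgut, 150.3, 295, 173 and 267 CPM in Hoxd13 midgut and 145, 113, 122 and 0 CPM in midgut. In mesenchyme on this scale it was 279, 168, 117 and 103 CPM in hindgut, 254, 272, 234 and 282 CPM in Hoxd13 midgut and 249.6, 299.8, 302 and 312 CPM in midgut. The mesenchyme was the higher layer in 10 of 12 samples against circumferential muscle and in 11 of 12 against longitudinal muscle.

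For CDH17 the log2 fold change was -1.24 ± 0.20 in circumferential muscle (adjusted p = 4.1e-07) and -1.07 ± 0.27 in longitudinal muscle (adjusted p = 0.0019), both from edgeR. Without hindgut replicate 1 the longitudinal value was -0.76 ± 0.31 and no longer passed (adjusted p = 0.097), with 13.3% of genes called and no member. In circumferential muscle, with 35.2% called, CDH17 was then the 1 member that passed (-1.07 ± 0.24, adjusted p = 0.00015). The 3 epithelial markers tested, ANPEP, APOA1 and EPCAM, fell as well in both muscle layers. Only these 3 of the 15 in the table passed the same filter, so their fall is no independent check on CDH17. The muscle columns rested on few counts, 59 for CDH17 in all circumferential and 33 in all longitudinal columns.

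ITGB1 in circumferential muscle measured 252, 143, 175 and 292 CPM in hindgut, 184, 236, 258 and 212 CPM in Hoxd13 midgut and 325, 147, 236 and 393 CPM in midgut. In mesenchyme it measured 167, 203, 216 and 210.0 CPM in hindgut, 157, 185, 152 and 187 CPM in Hoxd13 midgut and 166, 168, 144 and 166 CPM in midgut. The circumferential muscle was the higher layer in 9 of 12 samples, with 0.47 ± 0.16 (adjusted p = 0.015). The call was lost without hindgut replicate 1 (0.35 ± 0.19, adjusted p = 0.14), without hindgut replicate 4, Hoxd13 midgut replicate 3 or midgut replicate 4, and with library totals in place of TMM factors. With no low-count filter ITGB1 turned to -0.05 (adjusted p = 1). In longitudinal muscle ITGB1 ranged from 0 to 243 CPM, with a median of 137 CPM over 12 samples. It rested on 35 counts in all longitudinal columns, where a 0 allowed up to 60.6 to 267 CPM, and on 131 in all circumferential columns. In longitudinal against circumferential muscle ITGB1 was -0.86 ± 0.28, with the circumferential layer higher in 10 of 12 samples, and missed the threshold (adjusted p = 0.052).

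CDH11 ranged from 113 to 518 CPM in longitudinal muscle, from 196 to 423 CPM in circumferential muscle and from 199 to 317 CPM in mesenchyme, and its largest fold change between muscle and mesenchyme was 0.16 ± 0.14. ITGA3 was -0.29 ± 0.26 in longitudinal and -0.28 ± 0.19 in circumferential muscle against mesenchyme, neither past the threshold. Between longitudinal and circumferential muscle none of the 4 passed with edgeR, and 5.86% of genes were called, 7 higher (1.14%) and 29 lower (4.72%). With no adjustment 1 of the 4 had p under 0.05, beside 103 of the 614 genes tested.

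**Figure D5:**
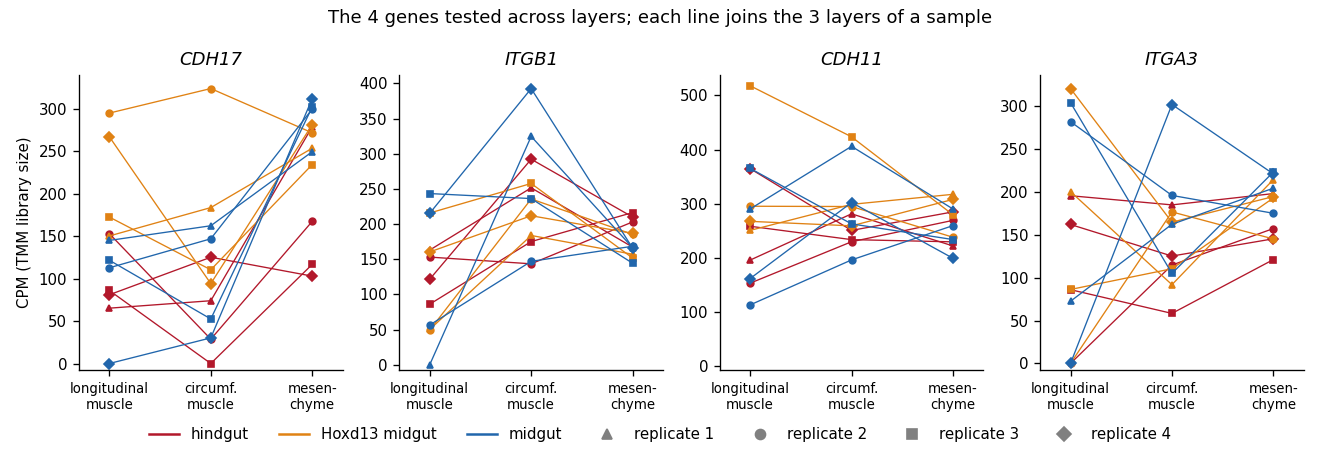
Levels of the 4 members tested across layers, in CPM on TMM library sizes (vertical axes), in longitudinal muscle, circumferential muscle and mesenchyme (horizontal axes). Each line joins the 3 layers of a sample, with colours for groups and symbols for replicates. CDH17 is highest in mesenchyme in most samples, and ITGB1 peaks in circumferential muscle in most, with muscle values from 0 to 393 CPM.

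The effect of hindgut or Hoxd13 in mesenchyme was also set against its mean in both muscle layers. None of the 4 members passed, where 3 genes (0.489%) did for hindgut and 0 (0%) for Hoxd13. With no adjustment 19 genes had p under 0.05 for hindgut and 49 for Hoxd13, of which 1 was a member, and DESeq2 called 1 and 0 genes. That member, CDH17, was -1.22 ± 0.46 for Hoxd13 (adjusted p = 0.55). For CDH17 and hindgut the value was -0.26 ± 0.54, and -1.15 ± 0.64 without hindgut replicate 1 (adjusted p = 0.55). CDH13 and PCDH18, the members called in mesenchyme with all samples, were not among these 4 and could not be tested this way. None of the members' differences in mesenchyme is thereby shown to be particular to that layer.

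For the other 58 members, sums over all samples gave counting intervals only. They rest on total counts, with no sample block. Total counts moved the median log2 fold change of all genes by -0.13 in circumferential muscle against mesenchyme. The share of all genes with such an interval was not computed. In circumferential muscle against mesenchyme the interval of 7 lay below 1 and of 5 above 1. Below 1 were CLDN1 (13 against 388 counts, ratio 0.272, 0.144 to 0.471), CLDN3 (42 against 663, ratio 0.515, 0.367 to 0.703), GJB1, GJB6, ITGA6, ITGB5 and PCDH1. Above 1 were CDH6 (66 against 396 counts), ITGA9 (27 against 127), ITGB3 (18 against 71), GJC3 (13 against 48) and ITGA2B (9 against 21). In longitudinal muscle against mesenchyme 2 lay below 1, among them CLDN3, and 4 above, of which PCDH19 rested on 15 counts and CDH8, GJA3 and ITGA7 on 3 or 4. In all, 11 members, GJB6 among them, were at 0 in all 24 muscle columns.

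The partners of these proteins were read from lists made with earlier results of these data known. Of 14 cytoplasmic integrin partners tested, 1 rose in hindgut against midgut, the actin and integrin linker TNS1 (0.68 ± 0.16, adjusted p = 0.032). Of 17 matrix ligands tested, 1 rose in the same comparison, the basement membrane collagen COL4A1 (0.82 ± 0.19, adjusted p = 0.033). None of 14 catenins and other cadherin partners or 12 further tight junction proteins passed with edgeR. Without hindgut replicate 1 the counts were 5 of 14 higher for integrin partners, 9 higher and 2 lower of 17 for matrix ligands, 5 of 14 lower for cadherin partners (DSG2, DSP, JUP, NECTIN1 and PKP2) and 4 of 12 lower for tight junction proteins (among them CGN, PARD6B and TJP1). List medians with all samples were 0.34, 0.25, -0.20 and -0.34 in that order. Of all genes tested, 1.32% rose and 0.168% fell with all samples, and 10.1% rose and 9.52% fell without hindgut replicate 1. That library was left out for its high epithelial markers, with results known, so the counts without it are no independent test.

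In Hoxd13 midgut against midgut, 3 of 17 matrix ligands passed and no member of the other 3 lists did, beside 2.66% of all genes. The matricellular CYR61 rose (1.47 ± 0.40, adjusted p = 0.04996), and the laminin chain LAMA5 (-0.58 ± 0.15, adjusted p = 0.034) and periostin, POSTN (-0.77 ± 0.20, adjusted p = 0.044), fell. In hindgut against Hoxd13 midgut, COL1A1, LAMB1 and POSTN rose, the last by 1.11 ± 0.20 (adjusted p = 0.0042), beside 2.25% of all genes. Without hindgut replicate 1 the counts were 8 of 17 ligands higher and 1 lower, beside 7.81% and 7.12% of all genes. In circumferential muscle against mesenchyme, 4 of 7 integrin partners rose (ILK, TLN1, TNS1 and VCL), of which TLN1 did not pass without hindgut replicate 1 (adjusted p = 0.058). There 5 of 8 cadherin partners fell and VCL, a member of both lists, rose, with the desmosomal DSP lowest (-1.03 ± 0.13, adjusted p = 7.3e-10). All 9 smooth muscle markers tested rose there too, with a median of 1.10. Of the 614 genes tested there, 21% rose and 19.1% fell. The genes of these lists passed the same low-count filter, which favours calls toward the layer where a gene is high. Their directions are therefore not independent of the filter.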

How the data were processed

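The deposited table holds counts per gene for 12 samples, as 36 columns (3 layers each), with 0 columns that belong to no sample. Per the submitters' processing notes, the authors used UMI-tools, STAR, featureCounts, MultiQC and DESeq2 with the GRCg6a genome; their versions, and whether a count is a read or a unique molecule, are not given in the sources used here. Both the members and the gene lists were chosen with earlier results of these data known.

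Counts were tested with edgeR 4.0.16 (R 4.3.3), with TMM factors, its low-count filter (minimum count 10, minimum total 15), the two-sided quasi-likelihood test and Benjamini-Hochberg adjustment over all genes tested, at a threshold of 0.05. The mesenchyme fit used all 12 mesenchyme columns with group as the only term. The layer fit took the 36 columns together, with sample as the blocking term. CPM are counts over TMM library sizes, except sums over several genes, which use total counts. The standard error is the size of the log2 fold change over the square root of F. Ratios of summed counts use total counts and have exact 95% intervals. These, and the floor of 3 counts for a value of 0, cover counting error only. Values in every sample are given for members past the threshold with all samples or without hindgut replicate 1, and for the 3 of each family with the highest mean CPM. Figures were drawn with Python 3.11.15 and matplotlib 3.10.9.

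Of 12 correlations of same-numbered deviations between groups, 0 were over 0.1. These correlations do not exclude shared processing, and calls with a replicate block are given further on. In 18 pairs of replicates of 1 group, counts differed beyond sampling noise (chi-square per degree of freedom 1.19 or more). The fits were tested on simulated data with the same spread for every gene and no library that stood apart. That test therefore says nothing of the effect of hindgut replicate 1. Alternatives were other size factors, total counts, mitochondrial genes left out, other filters, DESeq2 1.42.0, a replicate block, only the groups compared, and leaving out each sample. Some markers of the lists reported here were absent from the table and not used. They were KRT8, KRT19, KRT20, APOA4 and MUC2 of epithelium, ESAM of endothelium, and the erythroid HBBA, GATA1 and ALAS2. RefSeq symbols matched 61 of the 62 members. That table is of another build, GRCg7b, so no coordinates are given. Results of some genes are not reported here; they stay in the counts and medians.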

Additional observations from a re-analysis of the deposited data

Results flagged for a closer look

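Of 63 sets of 4 samples checked for a sample far from its group, 3 stood out, all in midgut mesenchyme, and chance alone gives about 1 in 20. CDH17 was lower in midgut replicate 1, at 246 CPM, than in the other midgut samples, at 296 to 299.7 CPM. CDH6 was higher in midgut replicate 1, at 115 CPM, against 73.1 to 79.6 CPM in the other midgut samples. CDH5 was higher in midgut replicate 3, at 70.9 CPM, than in the other midgut samples, at 53.8 to 56.5 CPM.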

How the results depend on the processing

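Across 24 results for single members and 457 alternative values, 414 had the direction and side of the threshold reported, 27 passed where the reported value had not, 15 no longer passed, and 1 turned its sign: ITGB1 in circumferential muscle against mesenchyme with no low-count filter (-0.050). The cause was not tested.

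In hindgut against midgut, genes called were 231 with no low-count filter, 112 with DESeq2 and 2 with only those groups fitted, with 3, 3 and 0 members. Leaving out 1 sample gave 14 to 825 genes and 0 to 8 members. With the replicate block 143 genes and 2 members (CDH13 and PCDH18) were called there, 79 and 1 in Hoxd13 midgut against midgut, and 146 and 0 in hindgut against Hoxd13 midgut. In Hoxd13 midgut against midgut, calls were 172 genes with no filter, 66 with DESeq2 and 365 with only those groups, with 2 members in the last. Leaving out 1 sample gave 37 to 317 genes and 1 to 2 members. In hindgut against Hoxd13 midgut, only those groups gave 71 genes, total counts 1 member (CDH13), and the stricter filter (minimum count 20, total 30) 1 member (CLDN3). Leaving out 1 sample gave 58 to 629 genes and 0 to 6 members.

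In longitudinal muscle against mesenchyme, calls were 2630 genes and 14 members with no filter, 78 and 0 with the stricter filter, and 73 to 129 and 0 to 1 without 1 sample. In circumferential muscle against mesenchyme they were 1654 and 10 with no filter, 128 and 0 with the stricter filter, and 193 to 272 and 1 to 2 without 1 sample, and total counts gave 1 member. Between the muscle layers they were 106 and 2 with no filter, 21 genes with the stricter filter, 1 member with mitochondrial genes left out, and 25 to 41 and 0 to 1 without 1 sample. The stricter filter leaves fewer genes to test, and with no filter all 17138 genes and 62 members were tested across layers. For most other settings, in mesenchyme too, the number tested is not given. These counts of members are therefore not set against the share over all genes. For the hindgut effect in mesenchyme against muscle, 1 gene was called with RLE size factors, total counts, no filter and DESeq2, and 1 to 4 without 1 sample. For Hoxd13 this range was 0 to 2. Total counts moved the median of all genes by -0.21 in Hoxd13 midgut against midgut, 0.24 in hindgut against Hoxd13 midgut and -0.13 in circumferential muscle against mesenchyme. With no filter it moved by -1.01 in longitudinal and -0.62 in circumferential muscle against mesenchyme.

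Depth limits the members most in the muscle layers, where 58 of 62 could not be tested.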
